A study of Mus musculus with 12 samples.

Results

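In mouse rectum, 3 libraries carried high levels of squamous keratin and cornified envelope transcripts, and these squamous-rich libraries are set here against 4 squamous-poor ones. The 7 libraries were sorted by the FPKM of exactly those genes, so every value of the contrast is a description and has no test. FPKM is the fragments of a transcript scaled to its length and to the mapped fragments of the library. The squamous-rich set held Lgr5-Apc 2, Lgr5-Apc 3 and control 1, and the squamous-poor set held control 2, control 3, Cdx2-Apc 1 and Cdx2-Apc 2. Of 27785 genes in the table, 15355 were autosomal and reached 1 FPKM in at least 2 of the 7 libraries, and these are the member genes. The series has 12 libraries, and 5 of them were in neither set.

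All libraries were bulk RNA from mouse rectum. Lgr5-Apc libraries (n = 4) came from Lgr5creER;APC flox mice, in which the Lgr5 gene drives a tamoxifen-activated Cre, and Lgr5-Cdx2-Apc libraries (n = 2) came from Lgr5creER;CDX2creER;APC flox mice. Cdx2-Apc libraries (n = 3) came from CDX2creER;APC flox mice, and control libraries (n = 3) are titled WT while their genotype field reads CDX2creER;APC flox with WT in brackets. The floxed Apc allele is thus named for every group, and what WT refers to is not given in the sources used here. The protocol on every sample gives tamoxifen at 25 mg/kg by intraperitoneal injection on 5 consecutive days, but the treatment field is blank for the controls. The labels give no age, sex or animal, so spreads between libraries may be technical. Because 2 of the 3 squamous-rich libraries were Lgr5-Apc and none was Cdx2-Apc, genotype and squamous content cannot be told apart in the contrast.

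The rectum ends where its columnar mucosa, a single layer of absorptive, goblet and enteroendocrine cells, meets the stratified squamous lining of the anal canal. In squamous epithelium a basal layer held by Krt5 and Krt14 filaments gives rise to spinous cells with Krt1 and Krt10, and the outermost cells build a cornified envelope of loricrin, filaggrin and small proline-rich proteins. Moist linings such as the oesophagus and oral cavity use Krt4 and Krt13 in place of Krt1 and Krt10.

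Total FPKM per library ranged from 451297 to 728462, with 11.97 to 40.2% of it in short RNAs. Apc lay between 13.5 and 18.8 FPKM in all 12 libraries, but a gene-wide level need not change when floxed exons are removed, so it does not check the labels. Y-linked genes differed between libraries in a way the labels do not mention. Eif2s3y was at 24.7 to 28.5 FPKM in the 3 Cdx2-Apc libraries, 3.06 FPKM in control 1, and at most 0.198 FPKM in controls 2 and 3. It was listed at 0 in every Lgr5-Apc and Lgr5-Cdx2-Apc library. Control 1, which is squamous-rich, thus stood apart from controls 2 and 3 here, and the part of this in the results was not tested.

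The 4 squamous markers separated the sets completely, as the choice of libraries fixed. Krt5, the basal type II keratin (ENSMUSG00000061527, GRCm38 chr15:101707070-101712898), was at 2075, 672 and 926 FPKM in Lgr5-Apc 2, Lgr5-Apc 3 and control 1. In control 2, control 3, Cdx2-Apc 1 and Cdx2-Apc 2 it was at 17.6, 12.4, 1.06 and 5.53 FPKM. Its partner Krt14 was at 1802, 775 and 881 FPKM in the squamous-rich libraries, against 14.1, 8.96, 2.00 and 5.87 FPKM in the squamous-poor ones. For both basal keratins every squamous-rich library lay far above every squamous-poor one, with control 1 between the Lgr5-Apc pair. Sprr1a, a small proline-rich envelope precursor, was at 767, 768 and 223 FPKM in the squamous-rich set, against 5.21, 8.43, 1.32 and 2.85 FPKM in the squamous-poor set. Lor (loricrin), the main protein of the skin's envelope, was at 867 and 484 FPKM in the Lgr5-Apc pair but 2.68 FPKM in control 1, against 0.431, 0.594, 0.104 and 0.278 FPKM in the squamous-poor set. For Lor, control 1 was closer in FPKM to the squamous-poor libraries than to the other squamous-rich ones.

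The columnar markers overlapped. Krt8, a simple-epithelium keratin, was at 206, 942 and 692 FPKM in the squamous-rich libraries and 670.2, 1020.0, 942 and 974 FPKM in the squamous-poor ones. Epcam, an adhesion molecule of columnar epithelium, was at 154, 572 and 415 FPKM in the squamous-rich set and 569, 709, 516 and 669 FPKM in the squamous-poor set. Lgr5-Apc 2 was the low library for both. The squamous-rich libraries therefore held columnar markers as well, within or near the squamous-poor range in Lgr5-Apc 3 and control 1.

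**Figure D1:**
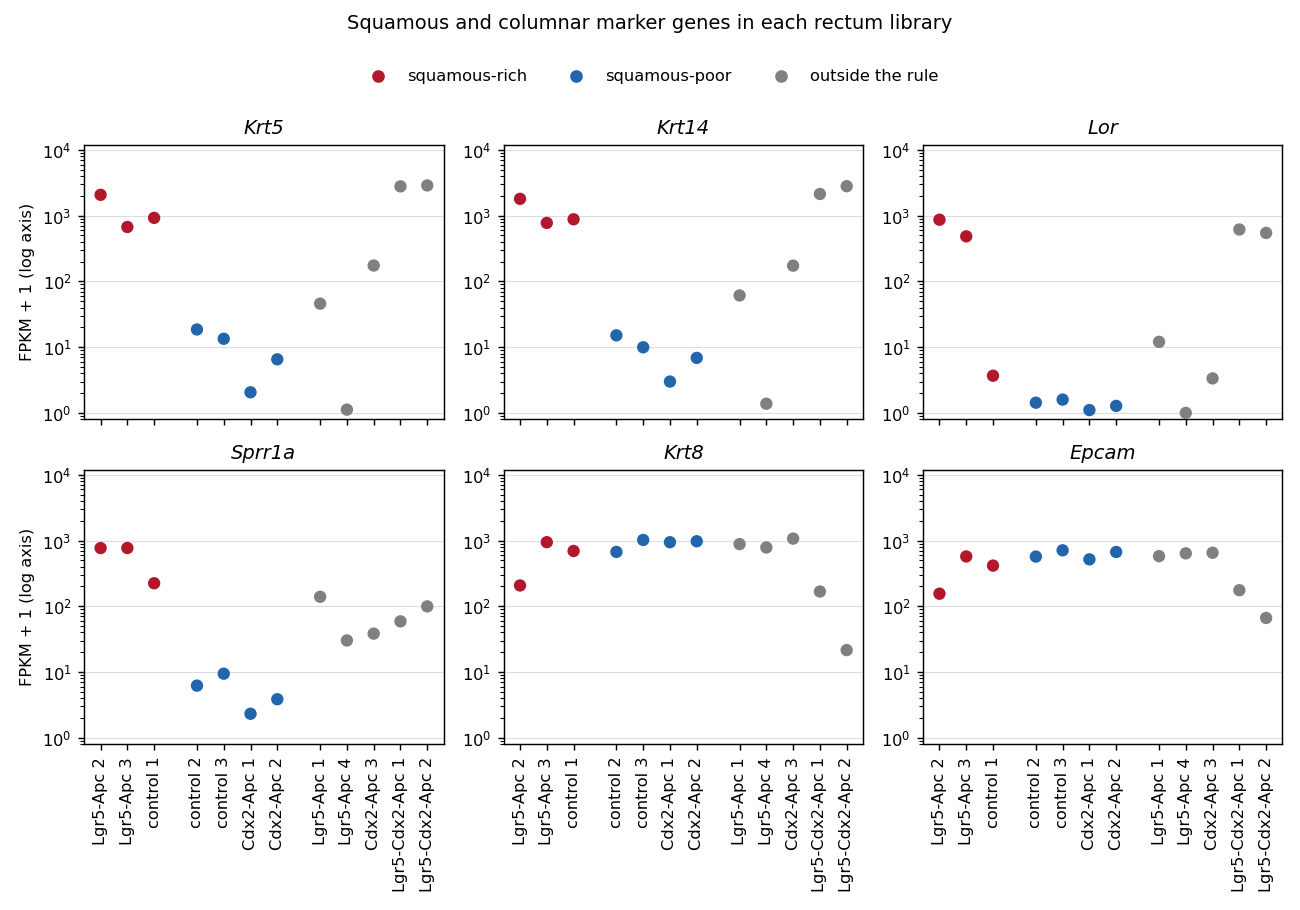
FPKM + 1 on a log axis for 4 squamous markers (Krt5, Krt14, Lor, Sprr1a) and 2 columnar markers (Krt8, Epcam), with one point per library. All 3 squamous-rich points lie above the 4 squamous-poor points for the squamous markers, with Lor at 2.68 FPKM in control 1, whereas Krt8 and Epcam overlap.

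The 61 genes of 4 squamous lists (basal, spinous, cornified envelope, and mucosal and wound keratins) took 9.93, 5.90 and 1.83% of non-short FPKM in Lgr5-Apc 2, Lgr5-Apc 3 and control 1. In the squamous-poor libraries they took 0.182 to 0.233%. Tgm3 made up a large part of the squamous-poor share, at 282 to 494 FPKM. Without it, an alternative chosen after the data were seen, the shares were 9.90, 5.83 and 1.79% in the squamous-rich set, against 0.0845 to 0.139% in the squamous-poor set. The 50 genes of the columnar epithelium, colonocyte and goblet cell lists took 0.634, 2.93 and 2.30% in the squamous-rich set, against 3.83 to 5.00% in the squamous-poor set. Shares of 1 total are not independent of each other. In bulk RNA, fewer cells of a type and less RNA per cell cannot be told apart.

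The nearest libraries on either side of the choice were control 1, with a mean of 4.83 in log2(FPKM + 1) over these 61 genes, and control 2, with 1.98. Between them lay Lgr5-Apc 1 at 3.71 and Cdx2-Apc 3 at 3.52, which were in neither set.

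**Figure D2:**
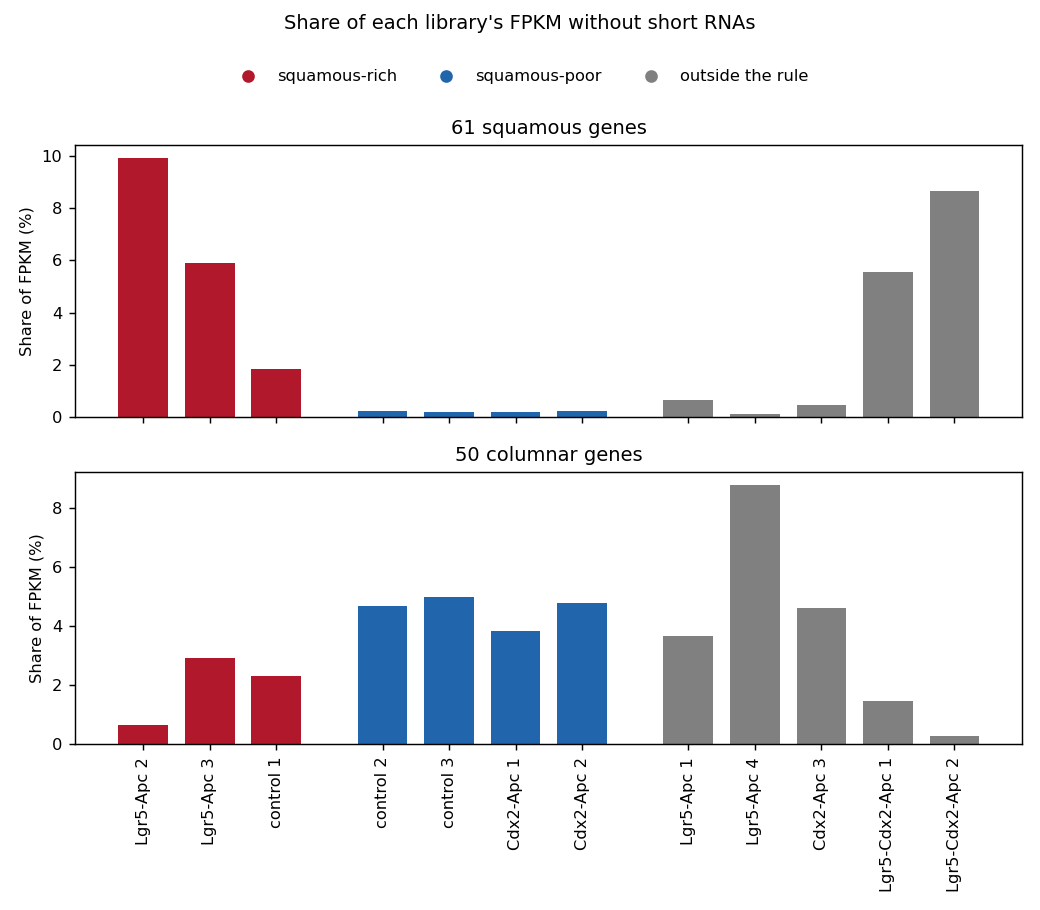
Share of each library's FPKM, after short RNAs were left out, in 61 squamous genes (top) and 50 columnar genes (bottom), with one bar per library. The squamous share reaches 9.93% in Lgr5-Apc 2 and stays at or under 0.233% in the 4 squamous-poor libraries, and the columnar share is lowest among the 7 in Lgr5-Apc 2 at 0.634%.

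Over the 15355 member genes, a gene was counted as higher or lower where the 3 squamous-rich and 4 squamous-poor libraries did not overlap and the difference of mean log2(FPKM + 1) was at least 2. On this scale the change of genes with low FPKM is understated. There were 467 higher genes, 3.04% of the member genes, and 57 lower genes, 0.371%. Without a minimum size, 2462 member genes (16.0%) lay wholly above and 1246 (8.11%) wholly below. The median difference over all member genes was 0.06. Since the libraries were chosen on squamous values, nothing is read from these shares.

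The basal layer was represented by adhesion and filament genes together with its lineage factor. Of 12 basal keratinocyte genes, 10 lay wholly above the squamous-poor libraries and 5 were higher, namely Krt5, Krt14, Krt15, Trp63 and Col17a1. The median difference of the list was 1.21. Trp63, the master transcription factor of stratified epithelium, was at 162, 46.4 and 62.2 FPKM in the squamous-rich libraries, against 1.36, 0.641, 0.241 and 0.335 FPKM in the squamous-poor ones. Col17a1, a hemidesmosomal collagen, had a difference of 5.66 (pooled within-set SD 0.68). The hemidesmosome integrins, which columnar cells also use, moved little: Itga6 was at 79.4 to 83.4 FPKM in the squamous-rich set, against 48.6 to 58.1 FPKM in the squamous-poor set, and Itga3 overlapped.

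All 16 spinous keratinocyte genes were higher, with a median difference of 6.05. Krt1 was at 4066, 2901 and 373 FPKM in the squamous-rich libraries, against 7.32, 3.76, 0.998 and 2.65 FPKM in the squamous-poor ones, and its partner Krt10 was at 5939, 3547 and 282 FPKM, against 5.64 to 9.93 FPKM. Control 1 was the low library of the squamous-rich set for both. Of the desmosomal cadherins of the upper layers, Dsg1a was at 59.7, 29.4 and 1.87 FPKM in Lgr5-Apc 2, Lgr5-Apc 3 and control 1, and Dsc1 at 136, 103 and 3.58 FPKM. Neither exceeded 0.0938 FPKM in a squamous-poor library. Of the cadherins of the lower layers, Dsg3 was at 168, 64.6 and 60.1 FPKM in Lgr5-Apc 2, Lgr5-Apc 3 and control 1. Dsc3 was at 155, 62.2 and 35.4 FPKM in the same libraries. Perp and Sfn, which columnar epithelium also expresses, had the smallest differences of the list, 2.52 and 3.00. Calm4 (8.72), Stfa3 (8.46), Krtdap (8.38) and BC100530 (8.19) were among the 12 largest differences, with gene models, small RNAs and antibody segments set aside, as were the mucosal keratins Krt4 and Krt13.

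Of 21 cornified envelope genes, 20 were higher, with a median difference of 5.37. Flg, which bundles keratin filaments, was at 655, 338 and 18.5 FPKM in the squamous-rich libraries, against 0.346, 0.177, 0.138 and 0.0386 FPKM in the squamous-poor ones. Cnfn (cornifelin) was at 1659.7, 822 and 206 FPKM in the squamous-rich set, against 3.75, 2.39, 0 and 0.232 FPKM in the squamous-poor set. The exception was Tgm3, a transglutaminase that cross-links the envelope. It was at 165, 322 and 196 FPKM in the squamous-rich set and 282, 317, 414 and 494 FPKM in the squamous-poor set, so the sets overlapped. Tgm1, the transglutaminase of keratinocytes, was higher, with 79.2, 58.4 and 25.8 FPKM in the squamous-rich libraries, against 0.128 to 0.725 FPKM in the squamous-poor ones.

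Of the 9 member genes among the mucosal and wound keratins, 8 were higher, with a median difference of 5.16, and Krt84 overlapped. Krt4, on GRCm38 chr15:101918535-101924735, had the largest difference of any member gene, 8.84 (pooled within-set SD 1.56). It was at 7351, 3598 and 701 FPKM in the squamous-rich libraries, against 15.2, 9.46, 0.867 and 2.48 FPKM in the squamous-poor ones. Krt13, on chr11:100117327-100121566, was at 5071, 3100.3 and 1015 FPKM in the squamous-rich set, against 22.0, 13.1, 1.25 and 1.67 FPKM in the squamous-poor set. Both markers of moist squamous linings therefore stood beside the skin-type pair Krt1 and Krt10, and in control 1 both exceeded them. Krt6a, a keratin of wounded and of moist squamous epithelium, was at 313, 239.9 and 241 FPKM in the squamous-rich set, against 0.370 to 4.62 FPKM in the squamous-poor set.

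Enzymes of the epidermal lipid barrier split. Of 12 genes, 7 were higher, with a list median of 2.96. Elovl4, which makes very long chain fatty acids, was at 323, 154 and 8.33 FPKM in the squamous-rich libraries, against 0.544 to 0.735 FPKM in the squamous-poor ones. Cers3, a ceramide synthase, had a difference of 4.50, and Alox12b, a lipoxygenase of the barrier, one of 4.31. Abca12, the lamellar granule lipid transporter, overlapped, with 2.55 FPKM in control 1 and 2.86 FPKM in control 3. The general sphingolipid enzymes Sptlc2 and Ugcg overlapped as well.

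Of 15 squamous transcription factors, 13 lay wholly above and 10 were higher, with a median difference of 3.17. Grhl1 was at 69.3, 32.4 and 12.2 FPKM in the squamous-rich libraries, against 0.223 to 0.721 FPKM in the squamous-poor ones. Grhl3, which with Grhl1 belongs to the grainyhead family of barrier regulators, had a difference of 4.10, and Barx2, a homeobox factor, one of 4.55. Klf4, active in both goblet cells and upper squamous layers, overlapped at 177, 285 and 123 FPKM in the squamous-rich set and 85.4, 136, 133 and 177 FPKM in the squamous-poor set. Sox2, a factor of foregut squamous epithelium outside the list that is named after its values were seen, was at 26.0, 9.34 and 15.5 FPKM in the squamous-rich set, against 0.213 to 0.533 FPKM in the squamous-poor set.

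**Figure D3:**
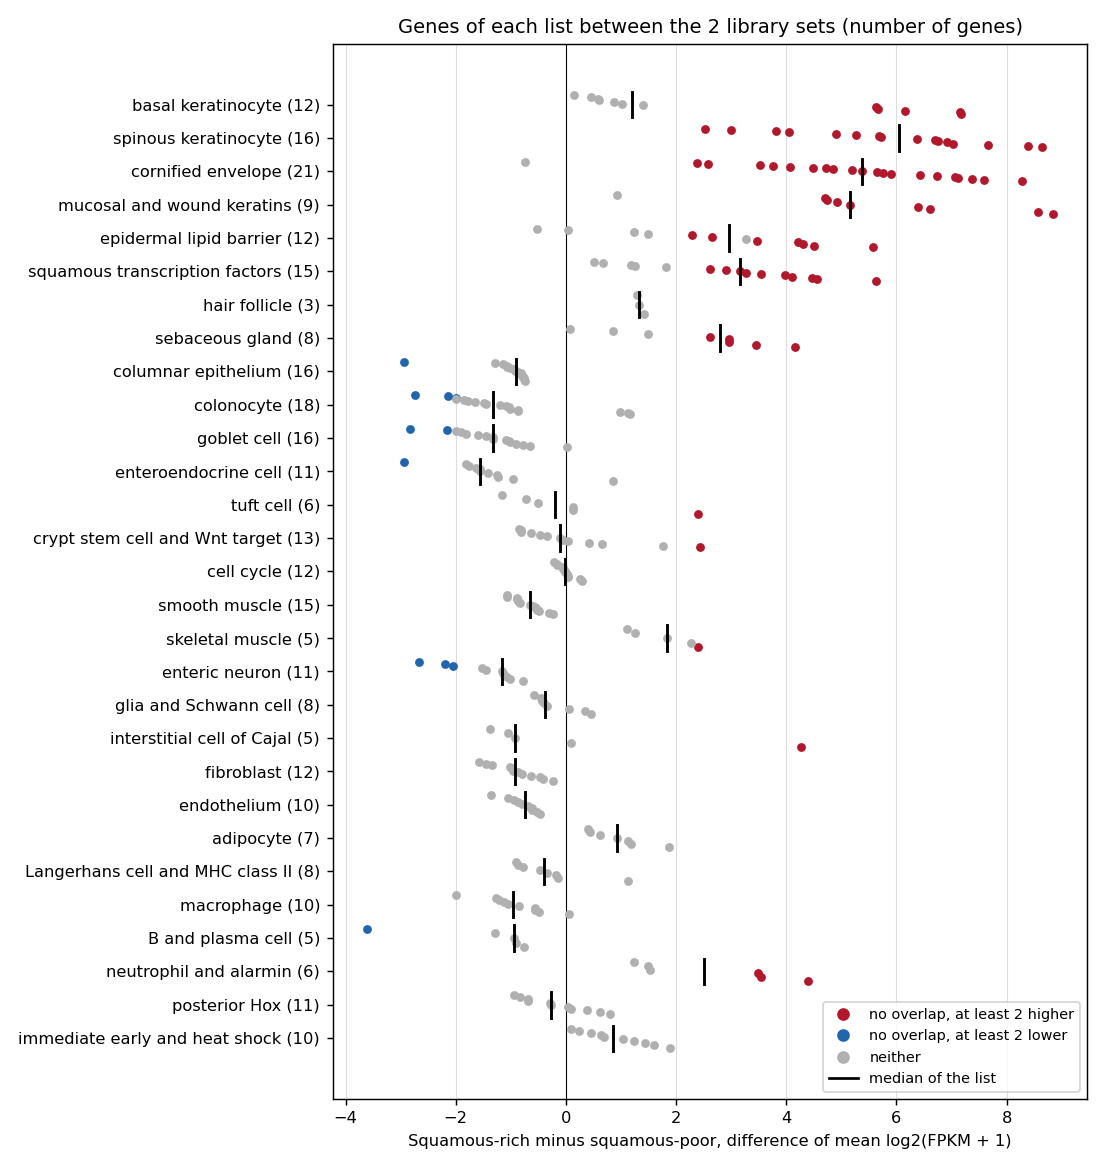
Difference of mean log2(FPKM + 1), squamous-rich minus squamous-poor, for each member gene (points) of the lists with at least 3 member genes, with the median of each list as a black bar. The spinous, cornified and mucosal keratin lists lie mostly to the right of 4, while the goblet, colonocyte, enteroendocrine and enteric neuron lists have medians between -1.56 and -1.15.

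The lists of skin appendages differed. Of 14 hair follicle genes in the table, 3 were members, the transcription factors Foxn1, Msx2 and Lhx2. All 3 lay wholly above the squamous-poor libraries and none reached the minimum difference: Msx2 was at 3.12, 1.78 and 0.661 FPKM in the squamous-rich libraries and listed at 0 in the squamous-poor ones. The hair shaft and inner root sheath keratins of that list did not reach 1 FPKM in 2 of the 7 libraries. None of the 8 melanocyte genes was a member. Of 8 sebaceous gland members, 5 were higher, among them Scd3 (4.15) and Elovl3 (3.44), lipid enzymes that the interfollicular epidermis can also express. Scd1, a fatty acid desaturase, was at 703, 186 and 54.4 FPKM in the squamous-rich set, against 17.0, 43.2, 24.3 and 18.1 FPKM in the squamous-poor set, with control 1 just above control 3.

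Some of the higher genes fell into runs along the chromosomes. Where higher genes within 500 kb were joined, a grouping made after their values were known, 11 runs of at least 5 genes held 106 of the 467, or 22.7%. These spans held 242 member genes, and some held mostly others: 7 of 72 were higher in a span on chromosome 11 and 5 of 26 in one on chromosome 7. How member genes in general group was not measured. The longest by count was on chromosome 3, GRCm38 chr3:92080271-93399442, the epidermal differentiation complex from Lor to Rptn, where 35 of 55 member genes were higher. It held 16 of the 21 Lce genes and 7 of the 16 Sprr genes. On chr7:43463151-43851181 the kallikrein proteases contributed 10 of 12 higher genes, while Klk1, a glandular kallikrein, was lower (-2.23). The run on chr1:106861173-107610484 held 10 Serpinb protease inhibitors, and that on chr5:86302217-86745815 held all 6 member genes of the Tmprss11 airway-type serine proteases. The type II keratin run on chr15:101347444-102257517 held 9 keratins with Rarg, and the type I run on chr11:100117327-100261029 held Krt13, Krt14, Krt15, Krt16 and Krt17. Close copies such as the Lce1 and Sprr2 genes can share reads, so their individual levels are uncertain.

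Promoters of the higher genes were read because so many moved together. RefSeq start sites (GRCm38.p6) gave 250 upstream bases for 321 of the 467 higher genes and 29 of the 57 lower genes. The motifs searched, 3 in all, were read on both strands, where N is any base: TGANTCA for AP-1, the Fos and Jun dimer active in differentiating keratinocytes, GCCNNNGGC for AP-2 and TTTATNG for Cdx factors. None of the 3 contains another, though matches may share bases. AP-1 was found in 16.5% of higher-gene promoters and 13.8% of lower-gene promoters, beside 4.72% of the 10134 member-gene promoters and 6.83% of all 27025 in the table. AP-2 was found in 16.8% of higher-gene promoters and 10.3% of lower-gene promoters, beside 20.2% of member-gene promoters and 13.6% of all. The Cdx motif was found in 11.2% and 10.3%, beside 6.78% of member-gene promoters and 10.2% of all. These 3 windows are shown because they hold the AP-1 letters, in capitals, and belong to genes described here. Each is on the minus strand and written 5′ to 3′ up to the base before the start site: Sprr1a at chr3:92485882-92486131, Lor at chr3:92083143-92083392 and Krt13 at chr11:100121567-100121816.
Sprr1a: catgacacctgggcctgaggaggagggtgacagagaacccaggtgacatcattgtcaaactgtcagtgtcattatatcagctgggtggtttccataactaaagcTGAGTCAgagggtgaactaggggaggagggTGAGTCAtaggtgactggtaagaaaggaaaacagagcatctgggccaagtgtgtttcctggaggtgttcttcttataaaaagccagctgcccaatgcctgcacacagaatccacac
Lor: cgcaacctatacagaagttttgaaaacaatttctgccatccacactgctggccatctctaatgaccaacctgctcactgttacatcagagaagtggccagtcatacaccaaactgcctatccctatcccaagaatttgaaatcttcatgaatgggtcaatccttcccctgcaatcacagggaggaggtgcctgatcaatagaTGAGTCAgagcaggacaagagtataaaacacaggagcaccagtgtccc
Krt13: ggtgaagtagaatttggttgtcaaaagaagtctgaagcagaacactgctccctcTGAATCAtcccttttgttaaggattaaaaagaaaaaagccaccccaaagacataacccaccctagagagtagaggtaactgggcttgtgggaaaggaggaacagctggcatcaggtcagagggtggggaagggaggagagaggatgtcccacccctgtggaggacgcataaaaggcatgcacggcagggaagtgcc
Sprr1a held the motif at 146 and 116 bases upstream of the start, Lor at 48 bases and Krt13 at 196 bases. The Krt5 window held none of the 3 motifs. A match is a match of letters and not a bound site.

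On the columnar side the differences were smaller and fewer genes separated. Of 16 columnar epithelium genes, 2 lay wholly below and 1, Cdx2, was lower, with a list median of -0.90. Cdx2, the intestinal homeobox factor, was at 0.248, 0.858 and 2.71 FPKM in the squamous-rich libraries, against 4.19, 22.0, 15.7 and 30.4 FPKM in the squamous-poor ones. Outside the sets it was at 151 FPKM in Lgr5-Apc 4, 0.836 FPKM in Lgr5-Apc 1 and 17.7 FPKM in Cdx2-Apc 3. In the Lgr5-Cdx2-Apc libraries it was at 18.5 and 1.44 FPKM. The part of the driver alleles in these levels was not tested. Cdx1 overlapped, at 21.4, 106 and 54.1 FPKM in the squamous-rich set and 71.5, 120.1, 111 and 129 FPKM in the squamous-poor set.

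Of 18 colonocyte genes, 11 lay wholly below and 3 were lower, with a median of -1.32. Aqp4, a basolateral water channel, was at 1.02, 0.658 and 3.17 FPKM in the squamous-rich libraries, against 10.6, 6.97, 17.1 and 39.8 FPKM in the squamous-poor ones. Slc9a3, the apical sodium-proton exchanger, had a difference of -2.13. Guca2a (guanylin) with -2.002 was just counted as lower, while Saa1 with -1.999 fell just short of the minimum. So did Reg4 of the goblet cell list, with -1.99. The colonocyte genes Mall (1.13) and Scnn1b (1.16) lay wholly above instead, and Scnn1b encodes a subunit of the epithelial sodium channel.

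Of 16 goblet cell genes, 8 lay wholly below and 2 were lower, with a median of -1.33. Zg16, a lectin of the mucus layer, was at 74.8, 494 and 379 FPKM in the squamous-rich set, against 1821, 1710.1, 1516 and 1879 FPKM in the squamous-poor set. Muc2, the gel-forming mucin, was at 36.6, 156 and 130.2 FPKM in the squamous-rich set, against 345, 767, 286 and 362 FPKM in the squamous-poor set. Of 11 enteroendocrine members, 9 lay wholly below and 1 was lower. Insl5, that gene, is a peptide hormone of distal colonic L cells and was at 2.49, 24.6 and 15.8 FPKM in the squamous-rich set, against 93.2, 76.9, 87.5 and 88.8 FPKM in the squamous-poor set. The other members that separated, such as Pyy (-1.76) and Gcg (-1.81), did so by less than the minimum.

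Once antibody segments, gene models and small RNAs were set aside, the 12 most negative differences included genes of the distal colon surface. Nxpe2 was at 0.350, 3.49 and 6.92 FPKM in the squamous-rich libraries, against 55.1, 29.0, 50.8 and 89.0 FPKM in the squamous-poor ones, and its relative Nxpe4 had a difference of -2.66. Clca3b (-2.64), Dpep1 (-2.67), Chst4 (-2.64), a sulfotransferase, and Foxd2 (-2.84) were also among them. Among the squamous-rich libraries, Lgr5-Apc 2 alone was lowest for 31 of the 57 lower genes, and 24 were tied for lowest between libraries, 18 of them listed at 0 in all 3.

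Other compartments also differed between the sets. Of the 57 lower genes, 24 were immunoglobulin genes, which plasma cells transcribe, and none of the 102 immunoglobulin member genes was higher. Igkc, the kappa constant region, was at 0.238, 3.88 and 7.78 FPKM in the squamous-rich set, against 491, 187, 214 and 22.5 FPKM in the squamous-poor set. Outside the sets it was at 4.30 FPKM in Lgr5-Apc 1, 1.97 FPKM in Lgr5-Apc 4 and 18.8 FPKM in Cdx2-Apc 3. In the Lgr5-Cdx2-Apc libraries it was at 1.65 and 1.61 FPKM. Low Igkc was thus not particular to squamous-rich libraries, since Lgr5-Apc 4 had the lowest squamous mean of all 12. Jchain, which links secreted antibody, was at 0.954, 3.44 and 1.67 FPKM in the squamous-rich set, against 94.1, 42.6, 43.6 and 6.95 FPKM in the squamous-poor set, with Cdx2-Apc 2 low. All 5 members of the B and plasma cell list lay wholly below, 1 of them lower. Of 11 enteric neuron members, 9 lay wholly below and 3 were lower. Vip, a neuropeptide of enteric neurons, was at 0, 1.95 and 6.003 FPKM in the squamous-rich set, against 14.7, 14.8, 25.9 and 12.7 FPKM in the squamous-poor set. None of the 15 smooth muscle genes separated (median -0.66), although Lgr5-Apc 2 was low for Tagln, at 133 FPKM, beside 420.3 and 758 FPKM in Lgr5-Apc 3 and control 1.

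Lgr5-Apc 2 also stood above the other squamous-rich libraries for genes of muscle and fat. Acta1, skeletal muscle actin, was at 205, 3.19 and 4.15 FPKM in the squamous-rich libraries and at most 4.40 FPKM in the squamous-poor ones. Plin1, the lipid droplet coat of fat cells, was at 39.96, 0.0570 and 0.202 FPKM in the squamous-rich libraries and at most 2.93 FPKM in the squamous-poor ones. The mean of the skeletal muscle list in log2(FPKM + 1) was 4.23, 0.73 and 0.78 in the squamous-rich set and 0.29 to 0.59 in the squamous-poor set, and that of the adipocyte list was 5.54, 1.18 and 1.05 in the squamous-rich set and 0.77 to 2.81 in the squamous-poor set. Of 5 skeletal muscle members, 1 was higher, the fast troponin gene Tnni2, at 47.4, 1.34 and 2.44 FPKM in the squamous-rich set, against 0.149 to 0.632 FPKM in the squamous-poor set. The part of these tissues in the lower columnar levels of Lgr5-Apc 2 was not tested.

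The immune and stress lists were mixed. Of 6 neutrophil and alarmin members, 3 were higher, and they are genes that keratinocytes also make: Defb4, a beta-defensin, was at 80.8, 67.7 and 1.30 FPKM in the squamous-rich set and at most 0.533 FPKM in the squamous-poor set, and S100a8 and S100a9 had differences of 3.53 and 3.48. Of 10 immediate early and heat shock genes, 5 lay wholly above and none reached the minimum. Hspb1, a small heat shock protein, was at 168, 62.5 and 25.6 FPKM in the squamous-rich set, against 11.1 to 22.2 FPKM in the squamous-poor set. None of 12 cell cycle genes separated, with a median of -0.02, and Mki67 was at 23.0 to 34.7 FPKM in the squamous-rich set and 27.5 to 31.9 FPKM in the squamous-poor set. None of 29 Hox members was higher or lower. Pou2f3, a tuft cell factor that keratinocytes also express, was higher (2.40), while the tuft cell genes Dclk1 (-1.16) and Trpm5 (-0.72) lay wholly below. Gja1 (connexin 43) of the Cajal cell list was higher (4.27) and Kit, the defining receptor of those cells, lay wholly below by less than the minimum (-1.38).

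The 3 squamous-rich libraries were not alike. Lgr5-Apc 2 was the highest of the 3 for 434 of the 467 higher genes, and control 1 the lowest for 394 (84.4%). The gap between the Lgr5-Apc pair and control 1 depended on the layer. The mean of Lgr5-Apc 2 and 3 minus control 1 in log2(FPKM + 1) had a median of 0.42 over the 5 higher basal genes, 1.24 over 10 transcription factors and 2.02 over 8 mucosal and wound keratins. It was 2.66 over 16 spinous genes, 3.09 over 7 lipid barrier genes and 4.62 over 20 cornified envelope genes, beside 1.76 over all 467. With 1 library on the control side, no spread can be set against these differences. The largest gap was that of Lor, 7.46, followed by Lce genes: Lce1a2 was at 353 and 97.7 FPKM in the Lgr5-Apc pair and 0.541 FPKM in control 1. The cornified genes of control 1 were not uniformly low, since Cnfn stood at 206 FPKM, Sprr1a at 223 FPKM and Sprr3 at 73.0 FPKM.

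For 22 higher genes control 1 was at or above the mean of the pair in log2(FPKM + 1). Ltf (lactoferrin) was at 16.5 and 36.5 FPKM in Lgr5-Apc 2 and 3 and 118 FPKM in control 1. Ppbp, a chemokine precursor, was at 94.0 and 124 FPKM in the pair and 324 FPKM in control 1. Psca, a surface protein of moist squamous and urothelial linings, was at 104 and 185 FPKM in the pair and 214 FPKM in control 1. Krt15 was at 647 and 114 FPKM in the pair and 296 FPKM in control 1. Within single-library ratios, Krt1 was at 1.96 and 4.32 times Krt5 in the pair and 0.403 times in control 1, whereas Krt14 stayed between 0.869 and 1.15 times Krt5 in all 3.

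**Figure D4:**
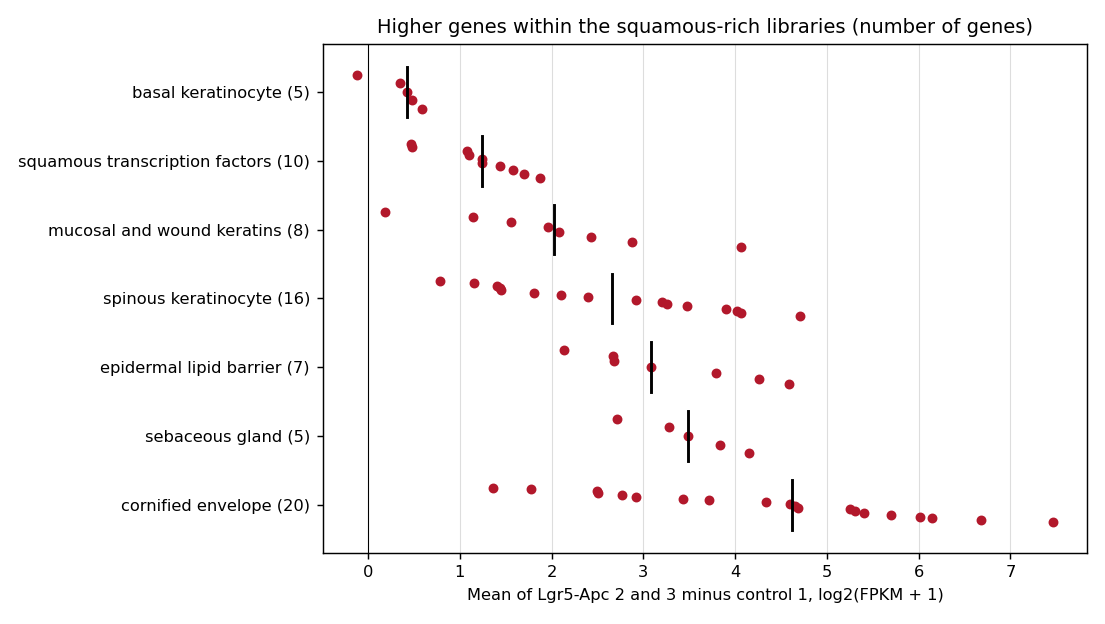
Mean of Lgr5-Apc 2 and 3 minus control 1, in log2(FPKM + 1), for the higher genes of each list (points), with list medians as black bars. Basal genes lie near 0 with a median of 0.42, and cornified envelope genes reach 7.46 for Lor with a median of 4.62.

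The 5 libraries in neither set show where the same genes stood elsewhere. Of the 467 higher genes, 454 and 434 lay above every squamous-poor library in Lgr5-Cdx2-Apc 2 and 1, 426 in Cdx2-Apc 3, 357 in Lgr5-Apc 1 and 106 in Lgr5-Apc 4. The share of all member genes that did so was not measured for these libraries, so nothing is read from the counts. In Cdx2-Apc 3 and Lgr5-Apc 1 the levels were low, with Krt5 at 173 and 44.9 FPKM and Krt4 at 83.2 and 223 FPKM. Lgr5-Apc 4 was the opposite extreme, with Krt5 at 0.121 FPKM, Krt13 at 0.880 FPKM and Lor at 0, and its 50 columnar genes took 8.81% of non-short FPKM. Muc2 was at 7725 FPKM there, against 767 FPKM in the highest squamous-poor library. Hoxb13, a gene of the most posterior gut, was at 0.924 FPKM in Lgr5-Apc 4, against 102 to 148 FPKM in the squamous-poor set. On the squamous mean, Lgr5-Apc libraries ran from 1.15 to 7.60, the range of all 12 libraries, and controls from 1.91 to 4.83.

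Of the 57 lower genes, 56 lay below every squamous-poor library in Lgr5-Cdx2-Apc 2, 54 in Lgr5-Apc 1, 45 in Lgr5-Cdx2-Apc 1, 31 in Lgr5-Apc 4 and 28 in Cdx2-Apc 3. Lgr5-Apc 1 and Cdx2-Apc 3 had like squamous means but unlike counts. The 57 genes were chosen with Lgr5-Apc libraries on the low side and Cdx2-Apc libraries on the high side. Shares of all member genes were not measured either, so nothing is read from these counts. Insl5 was at 20.8 FPKM in Lgr5-Apc 1 and 67.2 FPKM in Cdx2-Apc 3. Zg16 was at 584 and 2021 FPKM in these libraries.

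The Lgr5-Cdx2-Apc libraries held high levels of Krt5, Krt1 and Krt10 and low levels of Krt4 and Krt13. Krt5 was at 2790.3 and 2881 FPKM in them and Krt10 at 2734 and 6923 FPKM, within or above the squamous-rich range. Krt13 was at 1.28 and 118 FPKM, and Krt4 at 1.44 and 494 FPKM, below all 3 squamous-rich libraries. Krt13 was thus at 0.000458 and 0.0410 times Krt5 in the Lgr5-Cdx2-Apc libraries, and at 2.44, 4.62 and 1.10 times Krt5 in Lgr5-Apc 2, Lgr5-Apc 3 and control 1. Sprr3, an envelope precursor of moist linings, was at 0 and 4.65 FPKM in the Lgr5-Cdx2-Apc libraries, against 556, 454 and 73.0 FPKM in the squamous-rich set. Of the 467 higher genes, 52 were below all squamous-rich libraries in both Lgr5-Cdx2-Apc libraries, including Psca, Ppbp, Tmprss11a, Tmprss11b, Tmprss11d, Sox2 and Pitx1. In both libraries, 11 were at or below the highest squamous-poor library and 87 were above all squamous-rich libraries. The shares of all member genes in these positions were not measured, so nothing is read from the counts. Pax9, a factor of moist squamous lining, was listed at 0 in both Lgr5-Cdx2-Apc libraries and stood at 3.49, 2.31 and 3.35 FPKM in the squamous-rich set. Rptn (repetin), an envelope protein, was at 4.83 and 129 FPKM in the Lgr5-Cdx2-Apc libraries. In the squamous-rich set it was at 895, 589.5 and 28.0 FPKM, so Lgr5-Cdx2-Apc 1 was below all 3. Krt1 was at 1350.4 and 5089 FPKM in the Lgr5-Cdx2-Apc libraries, against 4066, 2901 and 373 FPKM. Cd207, the langerin of epidermal Langerhans cells, was at 16.4 and 20.1 FPKM in the Lgr5-Cdx2-Apc libraries, against 2.47, 2.64 and 0.389 FPKM in the squamous-rich set. Other tissue lists differed in these libraries too. Acta1 was at 211 and 232 FPKM in them. Their skeletal muscle means in log2(FPKM + 1) were 4.02 and 4.29, against 4.23, 0.73 and 0.78 in the squamous-rich set. Their hair follicle means were 3.16 and 2.05, against 0.73, 0.61 and 0.32 in the squamous-rich set. Their smooth muscle means were 2.60 and 2.06, against 4.81, 6.04 and 7.04 in the squamous-rich set. The part of these tissues in the keratin levels was not tested.

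**Figure D5:**
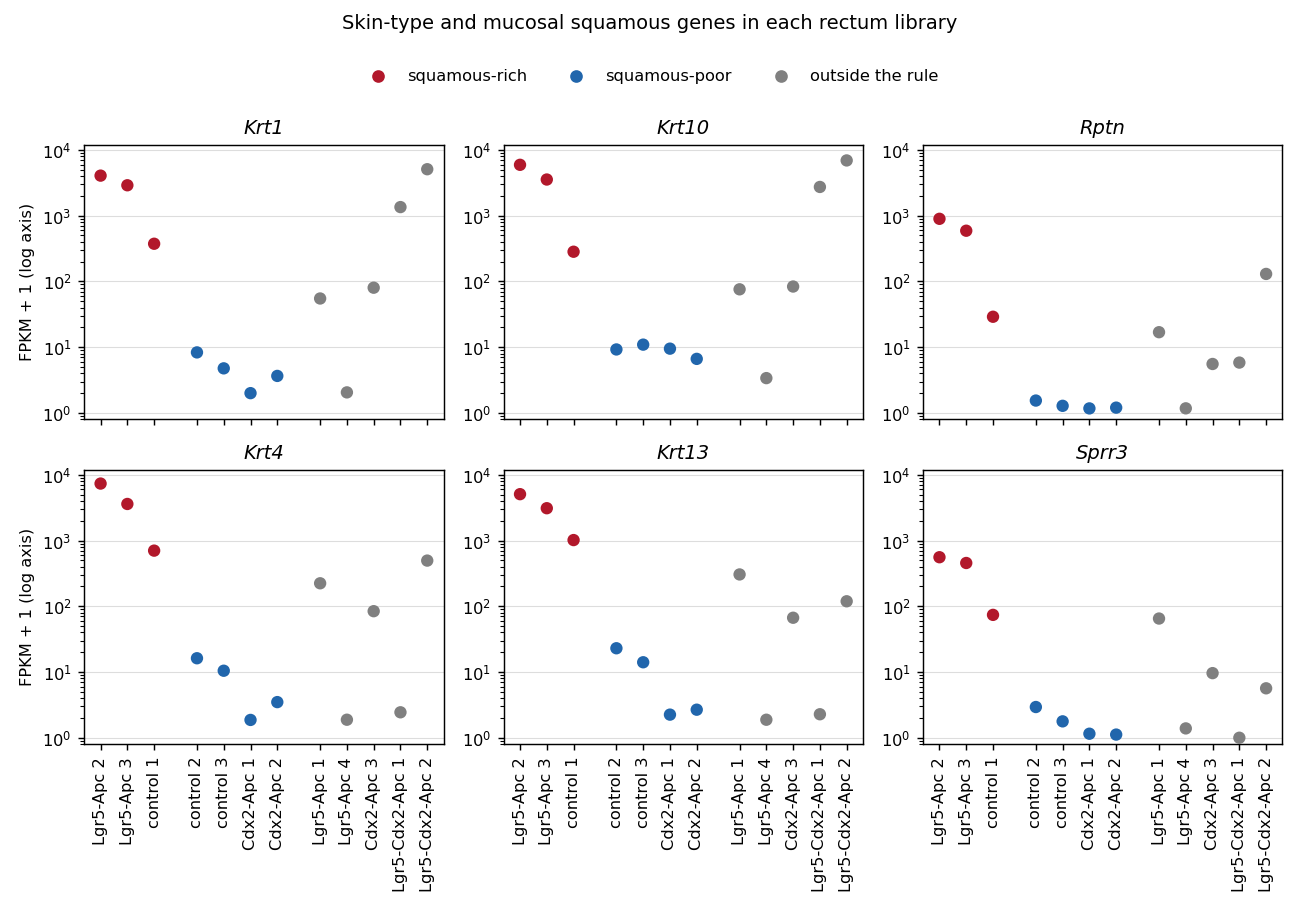
FPKM + 1 on a log axis for the skin-type keratins Krt1 and Krt10, the envelope gene Rptn and genes of moist squamous linings (Krt4, Krt13, Sprr3). Each library is one point. The Lgr5-Cdx2-Apc points stand within or above the squamous-rich range for Krt1 and Krt10, with Krt10 at 2734 and 6923 FPKM, but at 4.83 and 129 FPKM for Rptn, and below all of them for Krt13, at 1.28 and 118 FPKM.

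The labelled groups mix squamous-rich and squamous-poor libraries, and a limma fit over 17360 genes in all 12 libraries tested which genes differed between the genotypes. Lgr5-Apc differed from control in 2 genes at an adjusted p below 0.05 (limma, Benjamini-Hochberg, two-sided), 0.0115% of those tested, with 1881 at an unadjusted p below 0.05. Both were lower in Lgr5-Apc and both were members: Ighv1-85, an antibody segment, was listed at 0 in all 4 Lgr5-Apc libraries and at 3.32, 4.28 and 4.94 FPKM in the controls (adjusted p = 0.00207). Snora61, a small nucleolar RNA, was listed at 0 in all 4 Lgr5-Apc libraries and at 209, 21.9 and 244 FPKM in the controls (adjusted p = 0.00791). Cdx2-Apc differed from control in 7 genes (0.0403%), 5 higher (0.0288%) and 2 lower (0.0115%), of which 1, Snora61, was a member. The other 6 were Xist and 5 Y-linked genes. Xist, the X-inactivation transcript, was at 0.702 to 1.12 FPKM in the Cdx2-Apc libraries, against 98.1 to 154 FPKM in the controls, so this sex-linked difference and the Cdx2-Apc label cannot be told apart. Lgr5-Apc differed from Cdx2-Apc in 6 genes (0.0346%), 1 higher (0.00576%) and 5 lower (0.0288%), all on the X or Y chromosome. The comparisons share libraries and are not independent.

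None of the 467 higher genes or the 57 lower genes was called by limma in any of these 3 comparisons. At an unadjusted p below 0.05 the higher genes numbered 35 in Lgr5-Apc against control, 1 in Cdx2-Apc against control and 78 in Lgr5-Apc against Cdx2-Apc, and the lower genes 27, 1 and 16. Over all 17360 genes the same counts were 1881, 285 and 1800. Both gene sets were chosen on 7 of the libraries compared here, so nothing is read from these counts. The spread within groups was wide: Krt5 was at 44.9, 2075, 672 and 0.121 FPKM in the Lgr5-Apc libraries and 926, 17.6 and 12.4 FPKM in the controls, a difference of 0.59 (SE 2.55, adjusted p = 0.945, limma). Krt13 had a difference of 2.16 (SE 2.77, adjusted p = 0.787, limma) in the same comparison, and Lor one of 4.55 (SE 1.94, adjusted p = 0.438, limma).

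Without control 1, limma called 32 genes between Lgr5-Apc and control, 22 between Cdx2-Apc and control and 10 between Lgr5-Apc and Cdx2-Apc. Of the 57 lower genes, 11 were then lower in Lgr5-Apc than in control, and these 11 were immunoglobulin genes. Igkc differed by -6.60 (SE 0.95, adjusted p = 0.0357, limma) and Igkv6-15 by -4.94 (SE 0.36, adjusted p = 0.000941, limma). Ighv1-50, Igkv6-15 and Igkv8-24 were also lower in Cdx2-Apc. None of the 467 higher genes was called in these 3 comparisons without control 1. Without Lgr5-Apc 1, Mfap3l was called between Lgr5-Apc and Cdx2-Apc (2.86, SE 0.33, adjusted p = 0.0190, limma), and without Lgr5-Apc 4 so was Aqp4 (-3.85, SE 0.46, adjusted p = 0.0218, limma). Both genes belong to the sets chosen on libraries compared here, so nothing is read from these calls either.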

How the data were processed

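Per the labels' protocols, RNA was extracted from mouse rectum with a column kit and DNase, and libraries were made with a directional kit. Per the submitters' processing notes, STAR, Cufflinks and Cuffdiff were used with build mm10. Their versions are not given in the sources used here. The deposited table holds 1 FPKM value per gene and library, and no counts, so depth is unknown and counting error cannot be given. Of its 27831 lines, 25 named by spreadsheet dates were kept under placeholder names. They had no position, so none was a member gene, but they could enter the limma fit. For each repeated symbol only the line with the highest mean FPKM was kept, which left 27785 genes. Positions came from GENCODE M21 (GRCm38) and RefSeq for 97.7% of them. After the filter of 1 FPKM in 2 of 7 libraries, 486 X or Y genes and 191 without a position were left out.

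The pseudocount was 1 FPKM. Labelled groups were compared with limma 3.58.1 (R 4.3.3; trended empirical Bayes, Benjamini-Hochberg, two-sided) over all 12 libraries, and tested on simulated data. Other steps used Python 3.11.15, pandas 2.3.3, numpy 2.4.6 and matplotlib 3.10.9. The members, lists and tests were chosen with earlier results of these data known. Genes were named if they were given markers, among the 4 largest differences of a list, or among the 12 largest in either direction averaging 5 FPKM or more in their higher set, skipping gene models, small RNAs and antibody segments. Apc, Lgr5, Cdx2 and called autosomal genes were added, and other named genes were picked after their values were seen. Alternatives covered the pseudocount, filters, scaling, short RNAs, a replicate block, a squamous covariate, the compared groups alone and each library left out. They also covered a minimum difference of 1, Lgr5-Apc 4 added to the squamous-poor libraries, and comparisons within control and within Lgr5-Apc. The squamous share without Tgm3 was added after the data were seen.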

Additional observations from a re-analysis of the deposited data

Results flagged for a closer look

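List means and marker genes were examined in the Lgr5-Apc and in the squamous-poor libraries. Of these 74 sets of 4 values, 4 had 1 library far from the others. Chance gives about 1 in 20 for a single set, but these sets share libraries and are not independent. The others of the Lgr5-Apc group are given beside each. Lgr5-Apc 2 had a colonocyte list mean of 4.33 in log2(FPKM + 1), with the others at 5.83 to 6.07. Krt8 was at 7.70 in log2(FPKM + 1) in Lgr5-Apc 2, with the others at 9.61 to 9.88. Epcam was at 7.28 in Lgr5-Apc 2, with the others at 9.16 to 9.32. These 3 values belong to 1 library, whose skeletal muscle and adipocyte means were also high, and the part of that in them was not tested. Lgr5-Apc 1 had a cell cycle list mean of 3.15, with the others at 3.72 to 3.83.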

How the results depend on the processing

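The 467 higher and 57 lower genes became 975 and 389 with a minimum difference of 1. Control 1 against controls 2 and 3 gave 210 higher and 104 lower genes, which held 103 of the 467 and 32 of the 57. Lgr5-Apc 2 and 3 against Lgr5-Apc 4, with Lgr5-Apc 1 left out, gave 792 and 338. These held 436 of the 467 and 24 of the 57. Both comparisons have 1 library on one side and share libraries with the choice of sets. With a pseudocount of 0.1 FPKM there were 677 higher and 175 lower genes. Adding Lgr5-Apc 4, the library with the lowest squamous mean, to the squamous-poor libraries gave 459 higher and 46 lower genes. These held 438 of the 467 higher genes but 31 of the 57 lower genes. Leaving out 1 library gave 307 to 634 higher genes, the fewest without Lgr5-Apc 2, and 40 to 119 lower genes, with 93 without Lgr5-Apc 3 and 119 without control 1. Removing short RNAs together with scaling to equal totals moved the median of all member genes to -0.08, with 421 higher and 73 lower genes. Without Tgm3 the highest squamous-poor share of squamous genes was 0.139% in place of 0.233%. Of 1596 alternative values for 133 named genes, 138 moved by more than the spread within the sets and 0 called differences changed sign. Called genes do not overlap between the sets, so leaving out a library or changing the pseudocount cannot change their sign. The 0 was thus largely fixed in advance. Lgr5-Apc 2 and 3 against Lgr5-Apc 4 was not among these alternatives.

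The genes called by limma between Lgr5-Apc and control, 2 in the fit reported, were 1 under a mean minimum of 5 FPKM, 1 with short RNAs removed and totals made equal, and 1 to 32 with 1 library left out. Between Cdx2-Apc and control the 7 became 2 with a pseudocount of 0.1 FPKM, 2 under a mean minimum of 5 FPKM, 2 in a fit of the compared groups alone and 6 to 22 with 1 library left out. Between Lgr5-Apc and Cdx2-Apc the 6 became 1 under a mean minimum of 5 FPKM and 6 to 14 with 1 library left out. Deviations of same-numbered libraries from their group means had a median correlation of -0.02 over 15 pairs. Such deviations cancel within each small group, so this cannot decide whether the numbers pair libraries. With a replicate block the calls were 0, 2 and 8 in the order above. The causes of these changes were not tested. With FPKM alone, depth and its limits are unknown.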
